A study of Mus musculus with 12 samples.

Results

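The genes described here are 10 chemokines measured in mouse lung: Cxcl13, Cxcl1, Cxcl2, Cxcl5, Cxcl12, Cxcl15, Ccl2, Ccl7, Ccl3 and Ccl4. They were chosen by name, with earlier results of these data known. Each was represented by the probe set (a group of array probes for one transcript) that the platform annotation assigned to it and that had the highest mean over 12 arrays. They are 10 of 18193 genes with a probe set of a single symbol. A filter on low values kept 11602 genes for testing. It kept 5 of the 10 chemokines, namely Cxcl13, Cxcl1, Cxcl5, Cxcl12 and Cxcl15.

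The series asked whether simvastatin, an inhibitor of HMG-CoA reductase used to lower cholesterol, lessens the leak of lung vessels and the inflammation that follow irradiation in mice. Total RNA from lungs of wild-type mice was hybridised to 12 Affymetrix arrays, 3 in each of 4 groups, and the deposited values are log2 intensities. The combined group had a single dose of 25 Gy and simvastatin at 10 mg/kg by intraperitoneal injection 3 times a week, with lungs taken at 6 weeks. The radiation group had the same dose and time without the drug, the simvastatin group had the drug without radiation, and the control group had vehicle. The labels give an age of 8 to 12 weeks for the first 3 groups and of 8 to 10 weeks for controls, so age and treatment cannot be told apart in any comparison with control. The strain is not given in the labels, and they do not say that arrays came from separate animals. The p-values below therefore measure the spread between these samples, which may be technical.

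Several arrays went against their labels or stood close to each other, which touches every result below. Simvastatin 1 and simvastatin 3 were near-identical and were counted as 1 sample, which left n = 2 in the simvastatin group and n = 3 in the others. Combined 3 was near-identical to both of them under another label and was kept apart. Cdkn1a, the p53 target that encodes the cell cycle inhibitor p21, lay at 13.19, 13.17 and 11.18 in combined lungs, at 13.36, 13.12 and 13.42 in radiation lungs, at 11.09, 13.36 and 11.11 in simvastatin lungs and at 10.25, 10.69 and 13.01 in control lungs. The arrays labelled combined 3, simvastatin 2 and control 3 thus had Cdkn1a levels like those of the opposite radiation status. Eda2r, another p53 target, split the same arrays, with 4.75 or less on combined 3, simvastatin 1 and simvastatin 3 and 7.49 or more on simvastatin 2 and control 3. The Y-linked gene Eif2s3y lay at 10.39 on radiation 1 and at 10.25 on control 3, and at 3.46 or less on the other 10 arrays. Directions drawn from group labels below hold for libraries so labelled. Values without control 3, combined 3 and simvastatin 2 are given for some results only. Single arrays weighed heavily in most differences. Leaving out 1 array turned the sign or moved the size by over 1.5 times for 16 of 17 chemokine differences described below. The exception was Cxcl13 in combined minus radiation. Of 45 differences of listed genes, 36 turned or moved so.

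The lung identity of the tissue was clear from its epithelial markers. The summed level of 7 alveolar type 2 genes ranged from 16.9 to 17.1 in combined, 17.1 to 17.2 in radiation, 17.1 to 17.2 in simvastatin and 16.6 to 17.3 in control lungs, on the log2 scale. Markers of tissues next to the lung varied far more. The summed level of 8 skeletal muscle genes ranged from 8.82 to 16.2 in combined, 8.38 to 15.4 in radiation, 7.69 to 9.0 in simvastatin and 14.3 to 15.6 in control lungs. That of 8 squamous epithelium genes, as in oesophagus, ranged from 6.71 to 16.9 in combined, 6.64 to 14.1 in radiation, 6.70 to 6.91 in simvastatin and 9.20 to 16.5 in control lungs. T cell markers ranged from 8.28 to 10.9 in combined, 8.09 to 9.12 in radiation, 8.29 to 9.64 in simvastatin and 8.30 to 14.7 in control lungs, the last value on control 1 alone. Thymocyte, brown fat and neutrophil markers varied widely as well and are given with the chemokines below. Narrower ranges over all 12 arrays were seen for 4 lists, from 16.9 to 17.3 for club cells, 14.4 to 15.7 for endothelium, 14.7 to 15.5 for fibroblasts and mesothelium and 14.6 to 16.6 for cardiac muscle. In bulk tissue, fewer cells of a type and less RNA per cell cannot be told apart.

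Chemokines are small secreted proteins that draw leukocytes along concentration gradients through receptors that couple to G proteins. Cxcl13 binds Cxcr5 and guides B cells and follicular helper T cells into lymphoid follicles, including those that form in inflamed lung. Cxcl1, Cxcl2 and Cxcl5 act on Cxcr2 and bring in neutrophils, and Ccl2 and Ccl7 act on Ccr2 and bring in monocytes. Cxcl12 is a homeostatic ligand of Cxcr4 made by stroma and endothelium, and Cxcl15, also called lungkine, is made by lung epithelium in the mouse.

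RefSeq promoter windows (build GRCm38.p6, from 250 bases before to 50 bases after the start site) were found for 6 of the 10 genes. The windows of Cxcl1, Cxcl2, Cxcl13 and Cxcl15 are shown because Cxcl1 and Cxcl2 shared their highest array, Cxcl13 had the widest range of the 10 genes and Cxcl15 the narrowest of the 5 tested. All 4 genes lie on the plus strand of chromosome 5, at chr5:90890995-90891294 for Cxcl1, chr5:90903649-90903948 for Cxcl2, chr5:95956689-95956988 for Cxcl13 and chr5:90794284-90794583 for Cxcl15. Capitals mark matches, on either strand, to GGGAANNNCC, a narrow form of the NF-kB consensus, or to the TATA box TATAAA. Overlapping matches run together, and other forms of NF-kB site were not searched.
Cxcl1: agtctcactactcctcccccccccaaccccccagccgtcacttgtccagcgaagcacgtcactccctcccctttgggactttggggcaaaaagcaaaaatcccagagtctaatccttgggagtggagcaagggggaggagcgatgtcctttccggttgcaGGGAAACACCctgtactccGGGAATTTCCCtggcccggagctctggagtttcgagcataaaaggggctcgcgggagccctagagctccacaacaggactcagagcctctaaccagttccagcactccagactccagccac
Cxcl2: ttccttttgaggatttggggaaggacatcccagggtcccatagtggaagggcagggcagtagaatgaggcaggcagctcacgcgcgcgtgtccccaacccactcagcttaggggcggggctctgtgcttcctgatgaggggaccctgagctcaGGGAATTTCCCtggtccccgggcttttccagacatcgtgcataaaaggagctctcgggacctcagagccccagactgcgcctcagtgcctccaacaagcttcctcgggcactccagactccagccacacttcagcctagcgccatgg
Cxcl13: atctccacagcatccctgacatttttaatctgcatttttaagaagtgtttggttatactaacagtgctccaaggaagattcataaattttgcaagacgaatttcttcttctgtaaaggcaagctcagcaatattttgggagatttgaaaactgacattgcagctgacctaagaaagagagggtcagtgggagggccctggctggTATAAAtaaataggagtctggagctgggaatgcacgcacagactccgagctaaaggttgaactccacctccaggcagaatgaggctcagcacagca
Cxcl15: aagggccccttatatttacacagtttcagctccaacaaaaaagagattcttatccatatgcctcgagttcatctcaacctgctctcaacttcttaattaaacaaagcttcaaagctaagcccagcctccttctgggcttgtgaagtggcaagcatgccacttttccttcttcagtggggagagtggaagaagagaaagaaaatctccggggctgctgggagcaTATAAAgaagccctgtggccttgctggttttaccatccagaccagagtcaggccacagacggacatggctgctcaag
Cxcl1 held 3 matches to GGGAANNNCC, whose first bases lie 90, 71 and 70 bases before the start site. Cxcl2 held 2, at 97 and 96 bases before the start. In each gene the last pair overlaps and is the same near-palindromic stretch read on both strands. Of 32851 promoters, 5.78% held this motif. Cxcl13 and Cxcl15 had TATAAA at 46 and 27 bases before the start, a motif present in 13.6% of promoters, and no match to GGGAANNNCC. That does not show that they lack NF-kB sites, since other forms of the site were not searched. A match of letters is a description of sequence and was not measured as binding here. In the RefSeq annotation Cxcl15, Cxcl1 and Cxcl2 are consecutive coding genes on chromosome 5, Ccl2 and Ccl7 are neighbours on chromosome 11, and so are Ccl3 and Ccl4.

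Cxcl13 varied most between arrays among the 10 genes. It lay at 10.66, 10.38 and 9.33 in combined lungs, at 8.90, 8.35 and 7.10 in radiation lungs, at 9.26, 4.45 and 9.30 in simvastatin lungs and at 9.39, 5.45 and 8.10 in control lungs (Entrez gene 55985). All 3 combined arrays were above all 3 radiation arrays, whereas the combined range overlapped that of control at its lower end. Simvastatin 2 and control 2 were the lowest arrays, far under the rest of their own groups. Means were 10.13 ± 0.70 in combined and 8.12 ± 0.92 in radiation lungs (SD, n = 3 each), 6.86 ± 3.42 in simvastatin lungs (SD, n = 2) and 7.65 ± 2.01 in control lungs (SD, n = 3). In the order combined, radiation, control and simvastatin, the last 3 groups overlapped one another.

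The difference of Cxcl13 between combined and radiation lungs was 2.01 ± 1.26 (SE), or 4.03-fold, with a 95% interval from -0.81 to 4.83 and an adjusted p of 0.835 in limma. An exact permutation test of the means gave a two-sided p of 0.1, the smallest that 3 against 3 samples allows, and 0.8 after adjustment over 20 tests. Of all genes tested, 3.7% had every combined sample above every radiation sample, so Cxcl13 shared this ordering with many genes. Without control 3, combined 3 and simvastatin 2 the difference was 2.41. Radiation lungs differed from control lungs by 0.47 ± 1.26 and simvastatin lungs from control lungs by -0.78 ± 1.41 (SE), with adjusted p-values of 0.915 and 0.990. The last difference turned to 1.63 without simvastatin 2, and the radiation difference to -0.63 without control 2. Cxcl13 also had the lowest unadjusted p of the 5 tested chemokines in combined minus control, with a difference of 2.48 ± 1.26 (SE), an unadjusted p of 0.0782 and an adjusted p of 0.995. That difference was 1.38 without control 2 and 3.35 without control 1.

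The second probe set of Cxcl13 gave the same ordering of most arrays. It lay at 9.65, 9.47 and 7.91 in combined lungs, at 8.08, 7.48 and 6.30 in radiation lungs, at 7.96, 5.87 and 8.26 in simvastatin lungs and at 8.30, 5.91 and 6.88 in control lungs, and its Pearson correlation with the first was 0.94 over 12 arrays. On it combined 3 fell below radiation 1, so that the groups overlapped. Its difference was 1.73 ± 0.80 for combined minus radiation and 1.98 ± 0.80 for combined minus control (SE), with limma adjusted p-values of 0.835 and 0.995. The unadjusted limma p-values were 0.0573 and 0.0337.

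**Figure D1:**
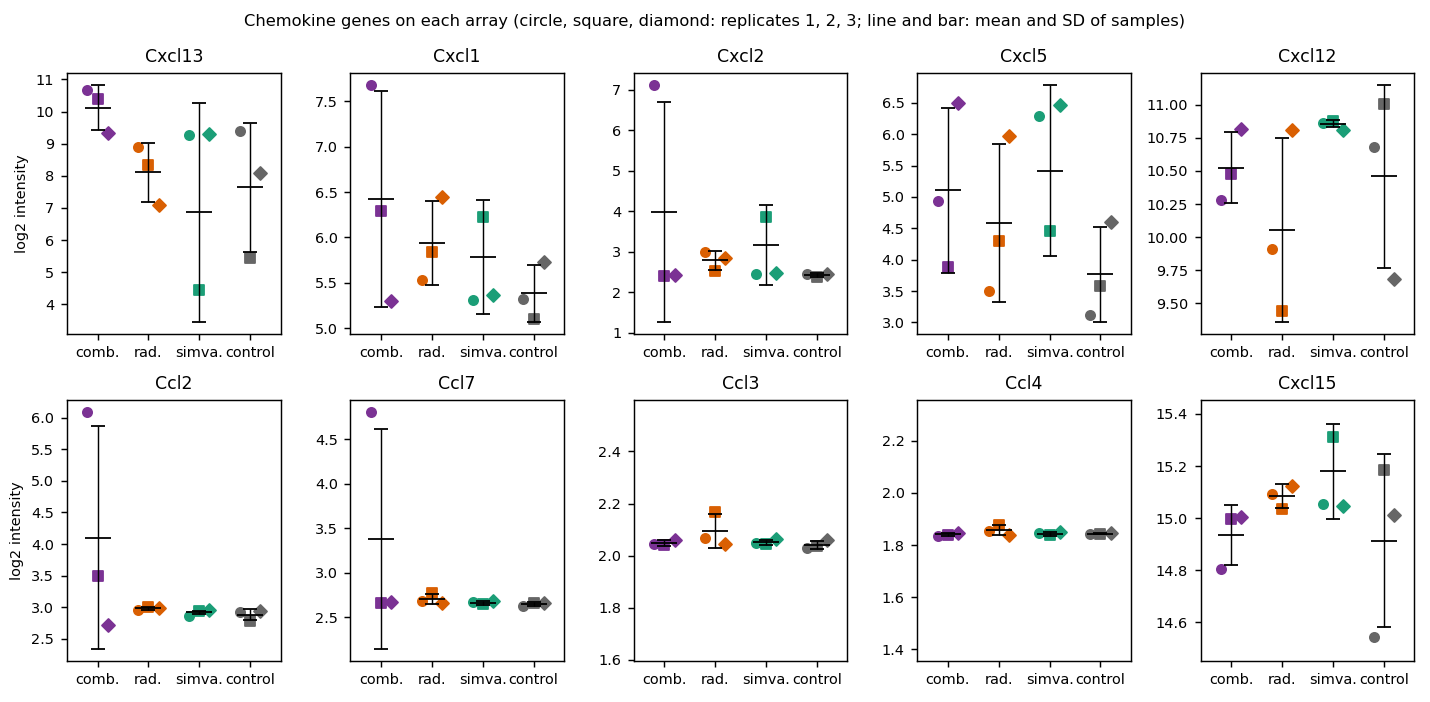
Log2 intensity (vertical axes, 1 scale per gene) of 10 chemokine genes in the combined (comb.), radiation (rad.), simvastatin (simva.) and control groups. Symbols are arrays, and the line and bar are the mean and SD of samples, with simvastatin 1 and 3 averaged into 1 sample. Combined 1 stands alone for Cxcl2 at 7.11, Ccl2 at 6.09 and Ccl7 at 4.81, and Cxcl13 spreads from 4.45 to 10.66.

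Cxcl1, Cxcl2 and Cxcl5, the ligands of Cxcr2, did not share one pattern. Cxcl1 (Entrez gene 14825) lay at 7.68, 6.29 and 5.30 in combined lungs, at 5.53, 5.84 and 6.44 in radiation lungs, at 5.31, 6.23 and 5.37 in simvastatin lungs and at 5.32, 5.10 and 5.72 in control lungs. Combined 1 was the highest array, 2.36-fold above radiation 3, and the ranges of all 4 groups overlapped. Cxcl1 differed by 0.49 ± 0.56 between combined and radiation lungs, by 0.55 ± 0.56 between radiation and control lungs and by 0.40 ± 0.62 between simvastatin and control lungs (SE), with limma adjusted p-values of 0.875, 0.781 and 0.990. Without combined 1 its combined minus radiation difference turned to -0.14, and without simvastatin 2 its simvastatin minus control difference turned to -0.041. Cxcl1 has 2 other probe sets, both low, whose correlations with the main one were 0.90 and 0.79 over 12 arrays.

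Cxcl2 (Entrez gene 20310) was near the bottom of the scale except on combined 1. It lay at 7.11, 2.40 and 2.43 in combined lungs, at 2.98, 2.53 and 2.85 in radiation lungs, at 2.46, 3.86 and 2.48 in simvastatin lungs and at 2.44, 2.37 and 2.46 in control lungs. Combined 1 was the single array above the filter level of 4.85, simvastatin 2 came next, and combined 2 and combined 3 lay within the control range. No fold is given against values under that level, and Cxcl2 was not tested among the kept genes.

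Cxcl5 (Entrez gene 20311), made largely by epithelium in the lung, followed yet another order. It lay at 4.94, 3.89 and 6.5 in combined lungs, at 3.50, 4.30 and 5.97 in radiation lungs, at 6.30, 4.46 and 6.47 in simvastatin lungs and at 3.11, 3.59 and 4.60 in control lungs. The 4 highest arrays were combined 3, simvastatin 3, simvastatin 1 and radiation 3, of which the first 3 are the near-identical ones. Those 4 arrays and simvastatin 2 also had the 5 lowest summed levels of skeletal muscle markers, 7.69 to 9.0 against 14.2 to 16.2 on the other arrays. The part of these markers in the Cxcl5 result was not tested. Cxcl5 differed by 1.65 ± 0.96 between simvastatin and control lungs, by 0.52 ± 0.86 between combined and radiation lungs and by 0.82 ± 0.86 between radiation and control lungs (SE). Its limma adjusted p-values were 0.990, 0.914 and 0.785. All 3 control values lay under the filter level of 4.85. The simvastatin minus control difference was 2.62 without simvastatin 2 and 3.03 without control 3, combined 3 and simvastatin 2. The radiation minus control difference was 0.13 without radiation 3. The combined minus radiation difference turned to -0.18 without combined 3 and to -0.026 without radiation 1.

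Cxcl12 and Cxcl15, the ligands of steady lung, had the narrowest ranges of the 5 tested chemokines by their probe sets of highest mean. They spanned 1.56 and 0.77 log2 units, while the second probe set of Cxcl12 spanned 3.12. Cxcl12 (Entrez gene 20315) lay at 10.28, 10.48 and 10.81 in combined lungs, at 9.91, 9.44 and 10.81 in radiation lungs, at 10.86, 10.88 and 10.81 in simvastatin lungs and at 10.68, 11.01 and 9.68 in control lungs. The lowest arrays were radiation 2, control 3 and radiation 1. The group ranges overlapped, or met at 10.81 in the case of simvastatin and radiation. Cxcl12 differed by 0.47 ± 0.40 between combined and radiation lungs, by -0.40 ± 0.40 between radiation and control lungs and by 0.40 ± 0.44 between simvastatin and control lungs (SE), with limma adjusted p-values of 0.839, 0.778 and 0.990. Its radiation minus control difference was -0.79 without control 3, or without control 3, combined 3 and simvastatin 2 together, and -0.098 without radiation 2. Its second probe set lay at 10.94, 10.54 and 10.35 in combined lungs, at 8.59, 10.17 and 10.16 in radiation lungs, at 10.46, 9.88 and 10.40 in simvastatin lungs and at 11.71, 10.39 and 9.82 in control lungs. The probe sets correlated at 0.38 over 12 arrays. The second gave 0.97 ± 0.53 for combined minus radiation and -1.0 ± 0.53 for radiation minus control, the same directions with larger sizes, but -0.48 ± 0.60 (SE) for simvastatin minus control. The remaining probe set stayed at the bottom of the scale on every array. When limma's array weights were estimated, Cxcl12 was the single chemokine of the 5 to pass, with a radiation minus control difference of -1.05 and an adjusted p of 0.042, against a range from 0.042 to 1.0 over all alternatives. With those weights 10.7% of all genes passed in that comparison.

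Cxcl15 (Entrez gene 20309) lay at 14.80, 15.00 and 15.01 in combined lungs, at 15.09, 15.03 and 15.12 in radiation lungs, at 15.06, 15.31 and 15.05 in simvastatin lungs and at 14.54, 15.19 and 15.01 in control lungs. On this probe set every combined array lay below every radiation array, while control 1 was lowest of all. Of all genes tested, 13.5% had all combined samples below all radiation samples. The difference between combined and radiation lungs was -0.15 ± 0.16 (SE), with a limma adjusted p of 0.863 and an exact two-sided permutation p of 0.1, which became 0.8 over 20 tests. Radiation minus control was 0.17 ± 0.16 and simvastatin minus control 0.27 ± 0.18 (SE), with adjusted p-values of 0.769 and 0.990. Without control 1 the radiation difference turned to -0.015. A second probe set of Cxcl15 correlated with the first at 0.86 over 12 arrays. On it combined 3 at 14.67 lay above radiation 2 at 14.66, so the groups overlapped. Its combined minus radiation difference was -0.26 ± 0.22 (SE), with a limma adjusted p of 0.843. Cxcl15 had the lowest unadjusted p of the 5 chemokines in the interaction of radiation with simvastatin, at -0.42 ± 0.24 (SE), unadjusted p 0.109 and adjusted p 0.882. The summed alveolar type 2 level was, like Cxcl15, lowest on control 1 at 16.6 and next lowest on combined 1 at 16.9, and the part of epithelial content in these values was not tested.

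**Figure D2:**
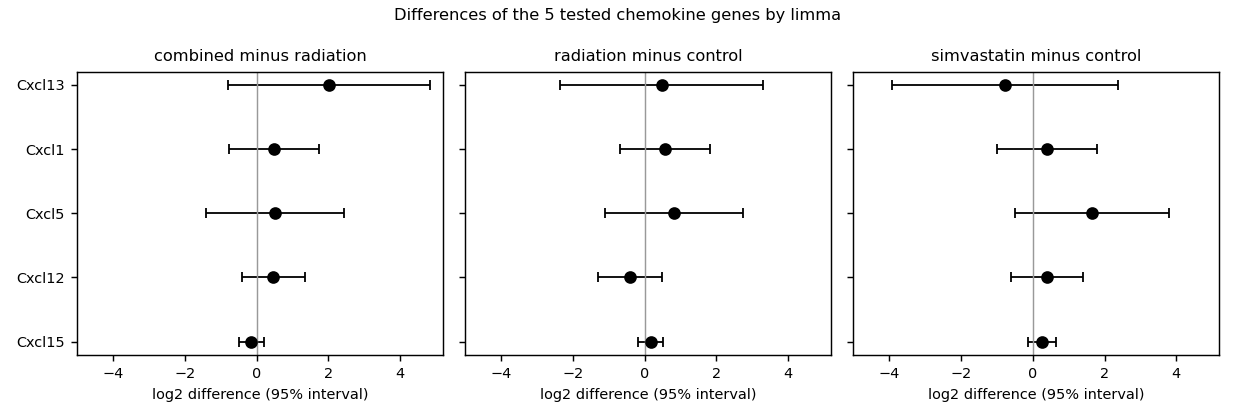
Log2 differences (horizontal axes) of the 5 tested chemokines by limma, for combined minus radiation, radiation minus control and simvastatin minus control, with 95% intervals as bars. Every interval spans 0, and that of Cxcl13 in combined minus radiation runs from -0.81 to 4.83.

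The monocyte ligands Ccl2 and Ccl7 were low on every array but combined 1. Ccl2 (Entrez gene 20296) lay at 6.09, 3.49 and 2.72 in combined lungs, at 2.95, 3.0 and 2.99 in radiation lungs, at 2.86, 2.94 and 2.95 in simvastatin lungs and at 2.93, 2.78 and 2.94 in control lungs. Combined 1 was the single array above the filter level, and combined 2 came next. Ccl7 (Entrez gene 20306) lay at 4.81, 2.66 and 2.67 in combined lungs, at 2.68, 2.77 and 2.66 in radiation lungs, at 2.67, 2.65 and 2.68 in simvastatin lungs and at 2.63, 2.66 and 2.67 in control lungs. The 11 other arrays spanned 0.14 log2 units, and combined 1, though above them all, was itself just under the filter level. Neither gene passed the filter, and without any filter none of the 5 low chemokines passed in any comparison, with a lowest adjusted p of 0.441 in limma.

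Ccl3 and Ccl4, which macrophages release to draw T cells and monocytes, stayed at the bottom of the scale on all 12 arrays. Ccl3 (Entrez gene 20302) ranged from 2.04 to 2.06 in combined, 2.04 to 2.17 in radiation, 2.04 to 2.06 in simvastatin and 2.03 to 2.06 in control lungs. Ccl4 (Entrez gene 20303) ranged from 1.84 to 1.85 in combined, 1.84 to 1.88 in radiation, 1.84 to 1.85 in simvastatin and 1.84 to 1.85 in control lungs. Both were far below the filter level of 4.85, so differences between groups were not detectable on these arrays.

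**Figure D3:**
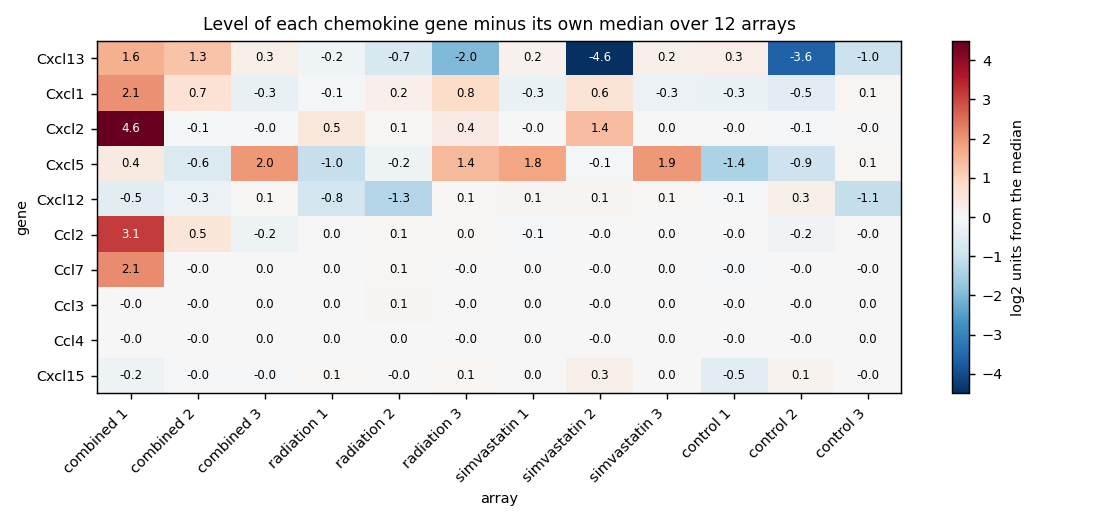
Each cell is the log2 level of a chemokine (rows) on an array (columns) minus that gene's own median over 12 arrays. Combined 1 carries the largest gains, 4.6 for Cxcl2, 3.1 for Ccl2 and 2.1 for Cxcl1 and Ccl7, while Cxcl13 falls lowest on simvastatin 2 and control 2.

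A single array, combined 1, was the highest of 12 for 5 of the 10 chemokines, namely Cxcl13, Cxcl1, Cxcl2, Ccl2 and Ccl7. It was highest for 4.79% of the 18193 genes. For Cxcl1, Cxcl2, Ccl2 and Ccl7 it exceeded the next array by over 1 log2 unit, which was so for 0.258% of all genes. The 10 chemokines and the lists were chosen with earlier results of these data known. Combined 1 was singled out from these same values, so the counts are a description and not a test. Among 25 other chemokine ligands combined 1 was highest for 6, and by over 1 unit for Ccl8, Ccl12, Cxcl9 and Cxcl10, which are named here after their values were seen. Ccl8 and Ccl12 are ligands that attract monocytes, and Cxcl9 and Cxcl10 are induced by interferon and bind Cxcr3. It was highest for 0 of 21 chemokine receptors. Of 15 inducing cytokines and NF-kB feedback genes it was highest for 4, none by over 1 unit. Il6, a cytokine induced with the neutrophil ligands and also named after its values were seen, lay at 6.01, 3.65 and 2.04 in combined lungs, at 2.06, 2.13 and 5.61 in radiation lungs, at 2.07, 2.71 and 2.05 in simvastatin lungs and at 2.01, 2.05 and 2.04 in control lungs. It was thus high on combined 1 and on radiation 3, the 2 arrays where Cxcl1 was also highest.

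Combined 1 stood out in tissue markers as well. It had the highest summed skeletal muscle level, 16.2, and the highest brown fat level, 14.4, next to the same rounded value on control 1, and the second highest thymocyte level, 12.5, after 15.6 on control 1. Its neutrophil markers summed to 15.7, within a range of 12.9 to 16.7 on the other arrays, and its macrophage markers to 16.28, within 15.6 to 16.5. The part of these tissues in the chemokine levels was not tested. The array rests on 1 sample of 3, and neither combined 2 nor combined 3 shared the gains of Cxcl2 and Ccl7.

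Across all genes no comparison gave a call. In limma 0 of the 5 tested chemokines, and 0 of 11602 genes (0%), passed an adjusted p of 0.05 in any of the 5 comparisons. At an unadjusted limma p under 0.05 the counts were 600 genes (5.17% of those tested) in radiation minus control and 518 (4.46%) in combined minus radiation. They were 214 (1.84%) in simvastatin minus control, 327 (2.82%) in combined minus control and 377 (3.25%) in the interaction. None of the 5 chemokines was among them by its probe set of highest mean. The second probe set of Cxcl13 had an unadjusted limma p of 0.0337 in combined minus control. In combined minus control all 5 chemokines lay above 0, against 50.5% of all genes, with a median of 1.04 beside 0.0039. Cxcl15 at 0.022 ± 0.16 and Cxcl12 at 0.066 ± 0.40 (SE) were near 0 there. The second probe set of Cxcl12 was at -0.028 ± 0.53 (SE). In combined minus radiation 4 of 5 lay above 0, against 37.4% of all genes, with a median of 0.49 beside -0.092. In radiation minus control and in simvastatin minus control 4 of 5 lay above 0, against 60.4% and 49.6% of all genes. Medians there were 0.47 and 0.40 beside 0.084 and -0.0023. In the interaction it was 3 of 5, against 42.7% of all genes, with a median of 0.071 beside -0.088. These comparisons share samples, and Cxcl5 passed the filter through the 5 arrays where it was high, so the counts are a description.

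The other chemokine ligands, listed from general knowledge, showed no called gene among the 17 tested of 27. In combined minus radiation 11 of 17 lay above 0 with a median of 0.31, and in combined minus control 13 of 17 with a median of 0.45, against 37.4% and 50.5% of all genes above 0. In radiation minus control 11 of 17 lay above 0 with a median of 0.15, against 60.4% of all genes. In simvastatin minus control and in the interaction 10 of 17 lay above 0, with medians of 0.086 and 0.034, against 49.6% and 42.7% of all genes. The lowest p-values in radiation minus control belonged to Cxcl17, a ligand of mucosal epithelium, at 1.25 ± 0.51, to Ccl6 at 1.11 ± 0.53 and to Ccl17, a ligand of Ccr4, at 1.06 ± 0.62 (SE), all with a limma adjusted p of 0.751. Cxcl17 was at 1.97 without control 3 and at 0.70 without control 1. In combined minus radiation they were Cxcl14 at -0.87 ± 0.54, Cxcl9 at 1.97 ± 1.41 and Pf4, the platelet factor, at 0.45 ± 0.33 (SE), with an adjusted p of 0.835. Cxcl9 was at 0.66 without combined 1 and at 3.63 without combined 3. In simvastatin minus control Ccl6 at 0.80 ± 0.59, the eosinophil ligand Ccl11 at -1.49 ± 1.10 and the thymus ligand Ccl25 at -3.27 ± 2.5 (SE) had an adjusted p of 0.990. Ccl6 was at 0.096 without simvastatin 2. Ccl25 lay at 13.36 on control 1, where thymocyte markers were also highest, and without that array its difference was -0.32. In combined minus control the 3 were Pf4 at 0.59 ± 0.33, Ccl27a at 0.39 ± 0.24 and Ccl6 at 0.76 ± 0.53 (SE), with an adjusted p of 0.995. In the interaction they were Cxcl9 at 3.61 ± 2.11, Cxcl17 at -1.30 ± 0.77 and Ccl6 at -1.14 ± 0.79 (SE), with an adjusted p of 0.882. Without control 3, combined 3 and simvastatin 2, Ccl6 was at -0.39 in the interaction and Ccl27a at 0.11 in combined minus control.

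Of 23 chemokine receptors 13 were tested and none was called. In radiation minus control 7 of 13 lay above 0 with a median of 0.45, in combined minus radiation 5 with a median of -0.18, and in simvastatin minus control 12 with a median of 0.31. Of all genes tested, 60.4%, 37.4% and 49.6% lay above 0 in these comparisons, with medians of 0.084, -0.092 and -0.0023. In combined minus control 9 of 13 lay above 0 with a median of 0.45, and in the interaction 5 with a median of -0.38, against 50.5% and 42.7% of all genes. Ackr3, the scavenging receptor of Cxcl12, had the lowest p of this list in radiation minus control. It lay at 11.82, 12.17 and 11.52 in combined lungs, at 12.16, 12.47 and 12.76 in radiation lungs, at 11.63, 11.99 and 11.57 in simvastatin lungs and at 10.82, 11.25 and 11.71 in control lungs. All 3 radiation arrays lay above all 3 control arrays, as for 4.86% of all genes tested, and the difference was 1.20 ± 0.26 (SE), unadjusted p 0.00115 and limma adjusted p 0.751. In combined minus radiation it was -0.62 ± 0.26, in simvastatin minus control 0.54 ± 0.29, in combined minus control 0.58 ± 0.26 and in the interaction -1.16 ± 0.39 (SE). Ackr2, which scavenges inflammatory CC ligands, differed by 1.05 ± 0.41 in radiation minus control, by 0.63 ± 0.46 in simvastatin minus control, by 0.62 ± 0.41 in combined minus control and by -1.06 ± 0.62 in the interaction (SE). Without control 1 these differences were 0.46, 0.047, 0.036 and -0.47 in that order. Ccr1 in simvastatin minus control, at 0.92 ± 0.98, and Cxcr4 in combined minus control, at -0.66 ± 0.38 (SE), were the remaining receptors among the lowest p-values. Ccr1 turned to -0.11 without simvastatin 2, and Cxcr4 was at -0.22 without control 1.

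Cxcr5, the receptor of Cxcl13, lay at 6.70, 8.28 and 7.71 in combined lungs, at 6.07, 6.36 and 7.07 in radiation lungs, at 7.49, 7.15 and 7.42 in simvastatin lungs and at 6.90, 7.70 and 6.40 in control lungs. It was highest on combined 2, and combined 1, where Cxcl13 peaked, lay below radiation 3. Its combined minus radiation difference was 1.06 ± 0.47 (SE), with an unadjusted p of 0.0466 and a limma adjusted p of 0.835. Ccr6, a receptor of B cells and of Ccl20, lay at 5.24, 6.10 and 5.13 in combined lungs, at 2.99, 3.69 and 4.62 in radiation lungs, at 5.12, 5.10 and 5.12 in simvastatin lungs and at 5.69, 5.22 and 4.20 in control lungs. Combined and radiation arrays did not overlap, an ordering of 3.7% of all genes, and the difference was 1.73 ± 0.53 (SE), unadjusted p 0.00873 and adjusted p 0.835. In radiation minus control Ccr6 was at -1.27 ± 0.53 and in the interaction at 1.65 ± 0.79 (SE). The summed level of 8 B cell markers moved beside both receptors, ranging from 10.8 to 12.3 in combined, 10.03 to 10.8 in radiation, 11.1 to 11.4 in simvastatin and 10.5 to 11.7 in control lungs, and its part in these differences was not tested.

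Among the cytokines that induce chemokines and the feedback genes of NF-kB, 8 of 16 were tested and none was called. In radiation minus control 4 of 8 lay above 0 with a median of -0.0086, in combined minus radiation 6 with a median of 0.26 and in simvastatin minus control 4 with a median of 0.082. The shares of all genes above 0 were 60.4%, 37.4% and 49.6% in these comparisons. In combined minus control 6 of 8 lay above 0 with a median of 0.26, and in the interaction 4 with a median of 0.061, against 50.5% and 42.7% of all genes. Nfkbia, the inhibitor IkB alpha, differed by 0.35 ± 0.15 in simvastatin minus control, by 0.22 ± 0.13 in combined minus control and by -0.26 ± 0.20 in the interaction (SE). Without control 3, combined 3 and simvastatin 2 its differences were 0.099, 0.096 and -0.018 in that order. Ltb, the lymphotoxin subunit that sustains Cxcl13 in lymphoid stroma, differed by -1.17 ± 0.48 in radiation minus control, by 0.77 ± 0.48 in combined minus radiation, by -0.59 ± 0.54 in simvastatin minus control and by 1.35 ± 0.73 in the interaction (SE). It lay at 10.82 on control 1, where T cell and thymocyte markers were highest, and without that array the differences from control were -0.61 for radiation and -0.03 for simvastatin. Relb and Nfkb2, NF-kB subunits of the lymphotoxin pathway, differed by 0.51 ± 0.26 and 0.39 ± 0.28 in combined minus radiation, and Relb by 0.44 ± 0.26 in combined minus control and 0.58 ± 0.40 in the interaction (SE). Ptgs2 at 1.0 ± 0.48 and Tnfaip3 at -0.47 ± 0.34 completed radiation minus control, and Il1b at 1.77 ± 1.24 and 1.23 ± 1.11 (SE) completed simvastatin minus control and combined minus control. Il1b was at 0.25 without simvastatin 2 in simvastatin minus control and at 0.18 without control 1 in combined minus control. Tnfaip3 was at -0.079 without control 1 in radiation minus control. The adjusted p-values of this list were those of the other lists, from 0.751 to 0.995.

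The tested genes whose pattern over 11 samples was most like that of Cxcl13, of 11601 ranked by Pearson correlation, were Plin4 at 0.94, Mknk2 at 0.93 and B3galt2, Fcna and Cidec at 0.92 each. Their Spearman correlations were 0.90, 0.94, 0.92, 0.95 and 0.86 in that order. These values describe samples that share one array table and are the highest of many. Plin4 and Cidec encode coat proteins of lipid droplets in fat cells, and Fcna encodes ficolin A, a lectin made by macrophages. Plin4 lay at 10.40, 10.19 and 8.82 in combined lungs, at 8.72, 8.17 and 7.71 in radiation lungs, at 8.79, 6.67 and 8.74 in simvastatin lungs and at 10.02, 6.27 and 8.85 in control lungs. It was lowest on control 2 and simvastatin 2, the arrays where Cxcl13 was lowest too. Fcna lay at 8.42, 7.98 and 7.76 in combined lungs, at 7.04, 5.21 and 2.54 in radiation lungs, at 7.73, 2.35 and 7.63 in simvastatin lungs and at 7.46, 3.45 and 6.80 in control lungs.

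Because 2 of these 5 genes are known from fat cells, fat markers are given beside Cxcl13. The summed level of 4 white fat genes was 15.1, 15.1 and 14.03 in combined lungs, 14.7, 14.1 and 13.7 in radiation lungs, 14.1, 14.2 and 14.04 in simvastatin lungs and 15.3, 13.4 and 14.6 in control lungs. Adipoq, which encodes the fat cell hormone adiponectin, lay at 13.52, 13.58 and 11.86 in combined lungs, at 11.17, 10.22 and 10.90 in radiation lungs, at 11.79, 10.19 and 11.77 in simvastatin lungs and at 13.79, 7.19 and 12.12 in control lungs. All 3 combined arrays lay above all 3 radiation arrays for Adipoq, as for Cxcl13 and for 3.7% of all genes tested. Of the other white fat genes Retn had this ordering too, while Lpl and the summed level overlapped. Lpl lay at 13.58 on combined 3 and at 14.50 on radiation 1. Lep was near the bottom of the scale on every array. The summed level of 6 brown fat genes was 14.4, 13.1 and 10.2 in combined lungs, 10.98, 11.7 and 9.92 in radiation lungs, 10.2, 9.38 and 10.1 in simvastatin lungs and 14.4, 9.64 and 13.5 in control lungs. Ucp1, which defines brown fat, was near the bottom of the scale, at 2.33 or less, on 7 arrays, combined 3 and all 3 simvastatin arrays included, where Cxcl13 ranged from 4.45 to 9.33. The part of fat in the Cxcl13 differences was not tested.

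**Figure D4:**
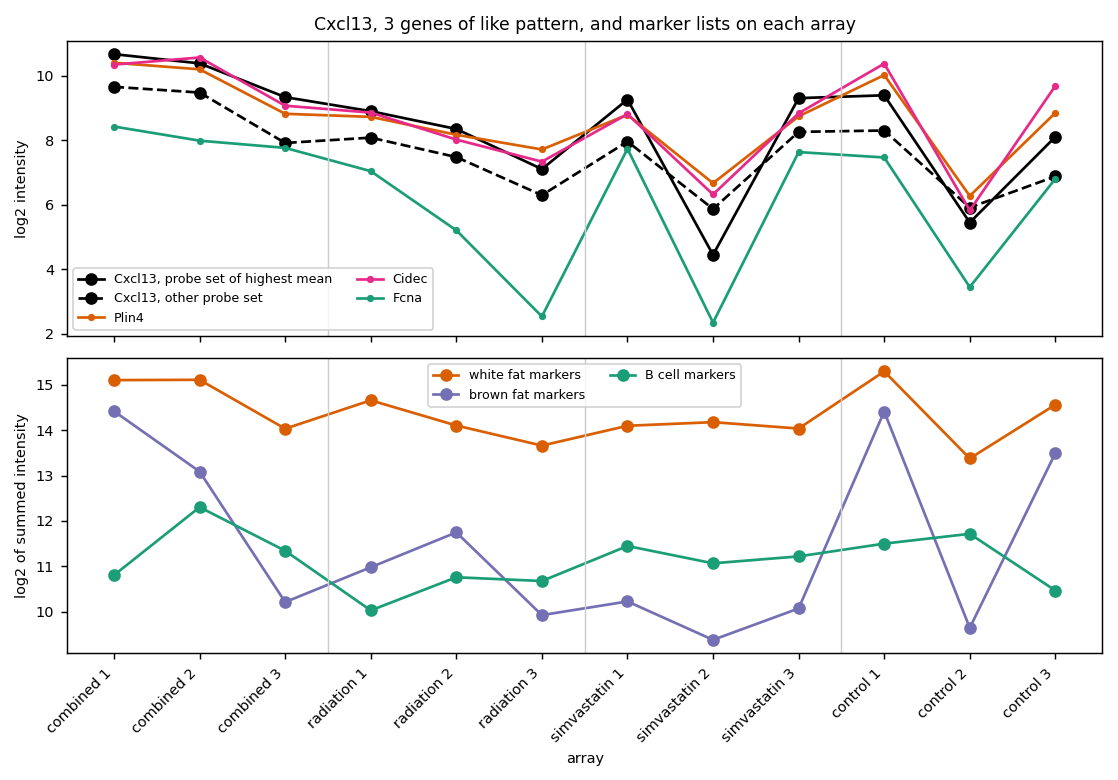
Upper panel: log2 intensity of both Cxcl13 probe sets and of Plin4, Cidec and Fcna on each of 12 arrays. Lower panel: log2 summed intensity of white fat, brown fat and B cell markers on the same arrays, with groups from left to right combined, radiation, simvastatin and control. Cxcl13 and the 3 genes share their dips on simvastatin 2 and control 2, while the B cell sum peaks on combined 2 at 12.3.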

How the data were processed

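RNA of 12 lung samples was measured on arrays with 45101 probe sets. The deposited values are log2 intensities, and MAS5 and GCRMA are named per the submitters' processing notes, with versions and settings not given in the sources used here. Values ran from 0.817 to 16.27, and array medians from 4.42 to 5.12. The number of arrays limits the precision, and no genome build applies to the values.

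Of 34945 probe sets with a single gene symbol in the platform annotation, 34741 matched a RefSeq gene by Entrez identifier, 932 others had several symbols and 9160 had none, and 64 control probe sets were left out. Probe sets above 4.85, the median over the table, on at least 3 of 12 arrays were kept, and a gene was represented by its kept probe set of highest mean (11602 genes). Arrays were called near-identical if the SD of their log2 differences over 10342 probe sets with a mean above 9 was under 0.2. It was 0.111 to 0.118 in 3 pairs and 0.336 or more in the other 63. Of these pairs, 1 lay within a group, and its arrays entered as their mean.

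limma 3.58.1 (R 4.3.3) was run on 11 samples with group means (lmFit, eBayes with a trend), with 7 residual degrees of freedom, two-sided p-values, Benjamini-Hochberg adjustment over all genes tested and a threshold of 0.05. Single values were compared by exact permutation of means. The interaction is combined minus simvastatin, minus the difference of radiation minus control. The fit was tested on simulated data. Every chemokine was named, in combined minus control and the interaction only that of lowest p, with the 5 genes most like Cxcl13. Cxcl12 and Cxcl15 were added in combined minus control because they lay nearest 0. Of each list the 3 genes of lowest p in each comparison were named. Other genes are named where the text says so, or as markers beside a result (Adipoq and Ucp1, chosen after their values were seen). The members and lists were chosen with earlier results of these data known. Summed marker levels are log2 of summed linear intensities of the markers measured. The lists were B cell, T cell, thymocyte, neutrophil, macrophage, alveolar type 2, club cell, endothelial, fibroblast and mesothelial, squamous epithelium, brown fat, white fat, skeletal muscle and cardiac muscle markers.

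Alternatives were 12 arrays as 12 samples, arrays left out singly or together, no filter, median centring, quantile normalization, array weights, no trend, a floor at the 10th percentile, the mean of a gene's probe sets, and the replicate number as a block. Same-numbered combined and control arrays deviated together in all 3 pairs (correlations 0.32, 0.29 and 0.41 of deviations from group means), which is a hint from the data since no label gives a shared source. No other pair of groups had all its correlations above 0.1. A gene's second probe set was added after the data were seen. Promoter windows and motif matches were read with Python 3.11.15.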

Additional observations from a re-analysis of the deposited data

How the results depend on the processing

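No chemokine passed the threshold under 401 of 402 alternatives computed for 17 chemokine results, the exception being Cxcl12 with array weights in radiation minus control (-1.05, adjusted p 0.042). Signs turned under 19. Counts of genes were 0 under every alternative except the following. In radiation minus control there were 9 without control 3, combined 3 and simvastatin 2, 1 without control 3 and radiation 1, and 1241 with array weights. In combined minus radiation there were 1172 and in combined minus control 43 with array weights, and also 2 in combined minus control without the 3 arrays. Leaving out each array in turn gave 0 to 1 genes in radiation minus control, combined minus control and the interaction, the single gene in each when control 3 was left out. With array weights, which down-weight arrays far from their group, 6 results of list genes also passed: Cxcl17, Ackr3 and Ccr6 in radiation minus control, and Cxcl14, Ccr6 and Relb in combined minus radiation. With those weights 10.7% and 10.1% of all genes passed in these comparisons, so the list genes do not stand out by passing. The cause was not tested. Median centring moved the median difference of all genes from 0.084 to 0.36 in radiation minus control and from -0.092 to -0.45 in combined minus radiation and turned no sign of a chemokine named.

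Leaving out each array in turn gave ranges for Cxcl13 from -0.63 to 1.34 and Cxcl15 from -0.015 to 0.31 in radiation minus control, Cxcl1 from -0.14 to 1.05 and Cxcl5 from -0.18 to 1.21 in combined minus radiation, and Cxcl13 from -1.88 to 1.63 and Cxcl1 from -0.041 to 0.57 in simvastatin minus control. Cxcl13 kept its direction in combined minus radiation, from 1.5 to 2.41. Cxcl15 in radiation minus control was -0.071 with array weights. Cxcl5 in combined minus radiation was -0.18 without the 3 arrays and -0.026 without control 3 and radiation 1. In simvastatin minus control, Cxcl13 was 0.023 with 12 arrays, 1.86 without the 3 arrays and 1.06 with array weights, and Cxcl12 was -0.0073 without the 3 arrays, -0.038 with array weights, -0.041 with the mean of its probe sets and -0.48 on its second probe set. Ccr1 ranged from -0.11 to 1.84 and Ltb was 0.059 with array weights.

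Of 18 same-numbered pairs 8 correlated above 0.1 (range -0.26 to 0.41). With the number as a replicate block 0 genes passed in each comparison and Cxcl13 in simvastatin minus control was 0.023. The block changed no call of a chemokine, in combined minus control included.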
